A study of Mus musculus with 6 samples.

Results

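The genes that encode the proteins of the cytosolic ribosome were examined in mouse forebrain RNA after 1 h of water avoidance stress (WAS). Members were taken by symbol, as Rpl or Rps followed by a number with optional endings such as a, al, l1 or x. The stalk forms Rplp0, Rplp1 and Rplp2 were added. Symbols with other endings, namely Rpl37rt, Rps27rt and Rps19bp1, fell outside, although Rpl37rt had 5995 to 6686 counts per library. Pseudogene symbols ending in -ps and the Rps6k kinases were excluded, and at least 10 counts were required in every library. Of 84 symbols that match, 81 passed, 49 of the large and 32 of the small subunit, out of 23282 entries in all. The 3 that did not pass are paralogs. Rpl10l had 0 counts in all libraries, Rpl39l had at most 3, and Rpl3l had between 1 and 8.

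All animals were male C57BL/6J mice. The 3 mice labelled WAS spent 1 h on a small platform surrounded by water, and the 3 labelled control spent the same time on that platform in a container without water. One forebrain hemisphere per mouse, with the olfactory bulbs and cerebellum removed, gave 1 library of QuantSeq 3′ mRNA-Seq, which reads the ends of polyadenylated transcripts. Since a transcript gives reads from its 3′ end only, levels are given as CPM, the counts relative to the TMM-scaled total of the library, and were not divided by transcript length. Whether the labels are the right way round could not be settled, because the count columns are headed WC in the files labelled WAS and WS in the files labelled control. Groups are therefore called by their labels, and every direction below turns around if the labels were exchanged.

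The cytosolic ribosome joins amino acids into protein. Its large subunit holds the peptidyl transferase centre, the tunnel through which the new chain leaves and the stalk that recruits elongation factors, and its small subunit decodes the messenger RNA (mRNA). The genes of its proteins are expressed in all cell types, and neurons and glia alike depend on them. Many of their mRNAs begin with a C followed by a run of pyrimidines, the terminal oligopyrimidine (TOP) motif, through which mTORC1 signalling controls their translation.

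Total counts lay between 9248520 and 10502029 per library, and the 81 genes took between 1.27% and 1.43% of them. The 45S ribosomal RNA entry took between 4.96% and 7.32% of the counts. The 10 neuronal markers, none at 0, summed to between 7195 and 7391 CPM in the libraries labelled WAS and to between 7750 and 8524 CPM in those labelled control, without overlap, and 2 of them were lower at an unadjusted p under 0.05 in edgeR. Lists of other cells went both ways, and 7.24% of all genes tested had such a p. Of 10 astrocyte markers 3 were higher at that p, with 7 above and 3 below 0 (median log2 fold change 0.20). Their sums overlapped, at 4747 to 4922 CPM in the libraries labelled WAS and 4701 to 4850 CPM in those labelled control. Of 10 meningeal markers, all above 0, 2 were higher (median 0.46), and all 5 blood markers lay above 0 with none at that p. Of 10 microglial markers 9 lay below 0 (median -0.14), and of 10 choroid plexus markers 7 did (median -0.07), with none at that p. Of the 10 cortical markers 4 were lower at that p, with sums of 4965, 6614 and 4555 CPM against 6867, 7883 and 6493 CPM. Libraries labelled WAS 1 and WAS 3 stood apart in markers of brain regions. The 10 thalamic markers summed to 892, 375 and 740 CPM in the libraries labelled WAS, against 341 to 402 CPM in those labelled control. The 8 midbrain markers tested, of 10 listed, summed to 87.9, 29.5 and 139.6 CPM, against 23.3 to 25.2 CPM. Striatal markers (8 tested of 10 listed, of which Gpr6 had no count in any library) summed to 181, 2107 and 409 CPM, against 1064 to 1493 CPM. Their part in the results below was not tested, and fewer cells of a type cannot be told apart from less RNA per cell in such tissue.

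The first bases of members named below are shown because the pyrimidine run at the start is what these mRNAs are known to share. Of the 81 members, 60 had a promoter entry in RefSeq (GRCm38.p6), which is 74.1% and under the 80% set for a check over all members, so that check is void. Each window below runs from 15 bases before to 15 bases after the RefSeq start, on the gene's strand, with the longest pyrimidine run near the start in capitals.
Rplp2, chr7:141447636-141447665, plus strand: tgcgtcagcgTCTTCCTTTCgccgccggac
Rpl22l1, chr3:28805493-28805522, plus strand: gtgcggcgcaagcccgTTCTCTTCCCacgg
Rpl7a, chr2:26910792-26910821, plus strand: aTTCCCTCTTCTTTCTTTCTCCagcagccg
Rpl12, chr2:32961697-32961726, plus strand: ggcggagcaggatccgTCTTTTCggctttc
Rps6, chr4:86857353-86857382, minus strand: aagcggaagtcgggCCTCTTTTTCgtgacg
Rps9, chr7:3704026-3704055, plus strand: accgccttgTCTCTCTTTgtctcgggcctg
Rps27, chr3:90213634-90213663, minus strand: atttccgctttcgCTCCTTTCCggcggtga
Rpl7l1, chr17:46782642-46782671, minus strand: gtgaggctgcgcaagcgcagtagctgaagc
The windows were chosen after they were read, all but that of Rpl7l1 because the longest run lies wholly within them. Rpl7l1 stands for members whose longest run begins or ends outside the window, such as Rplp0, Rpl4, Rpl5, Rpl11, Rpl13, Rpl26, Rpl36al, Rps12 and Rps27l. Rpl10a, Rpl22, Rps24 and Rps27l have more than 1 start in RefSeq, with runs that differ between the starts. Rpl7a is shown for its run of 21 bases, the longest among the 60, and Rpl12 for its run of 7. Among the 60 genes with an entry, 44 had a run of at least 8 pyrimidines within 30 bases of the start, and of all 27025 genes with an entry 30.5% had one. This says nothing of the 21 members without an entry.

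The 81 genes spanned levels from 12.1 CPM for Rps27l to 1272 CPM for Rplp1, as means over 6 libraries, and the plot of CPM by gene gives each library's value. Rplp1, one of the paired acidic proteins of the stalk, stood at 1279, 1321 and 1259 CPM in the libraries labelled WAS and at 1237, 1208 and 1328 CPM in those labelled control. The groups overlapped, and the highest and the lowest value were both in libraries labelled control. Rpl4, a protein that lines the exit tunnel, came next at 599 to 626 CPM in the libraries labelled WAS and 608 to 645 CPM in those labelled control. Rpl13, Rpl26 and Rpl22 followed with means of 359, 344 and 319.6 CPM. Rpl26 sits near the tunnel exit, and Rpl22 is a large-subunit protein that mice can lose because of its paralog Rpl22l1. In the small subunit the highest means were 454 CPM for Rps14, 375 CPM for Rps29, 366 CPM for Rps9, 326 CPM for Rps20 and 305 CPM for Rps24. Rps14 lies at the mRNA exit and Rps9 at the mRNA entry. At the lower end stood Rpl11 (33.7 CPM), Rpl7l1 (29.2 CPM) and Rpl12 (25.1 CPM) of the large subunit, and Rps12 (38.9 CPM), Rps4l (26.1 CPM) and Rps27l of the small subunit.

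**Figure D1:**
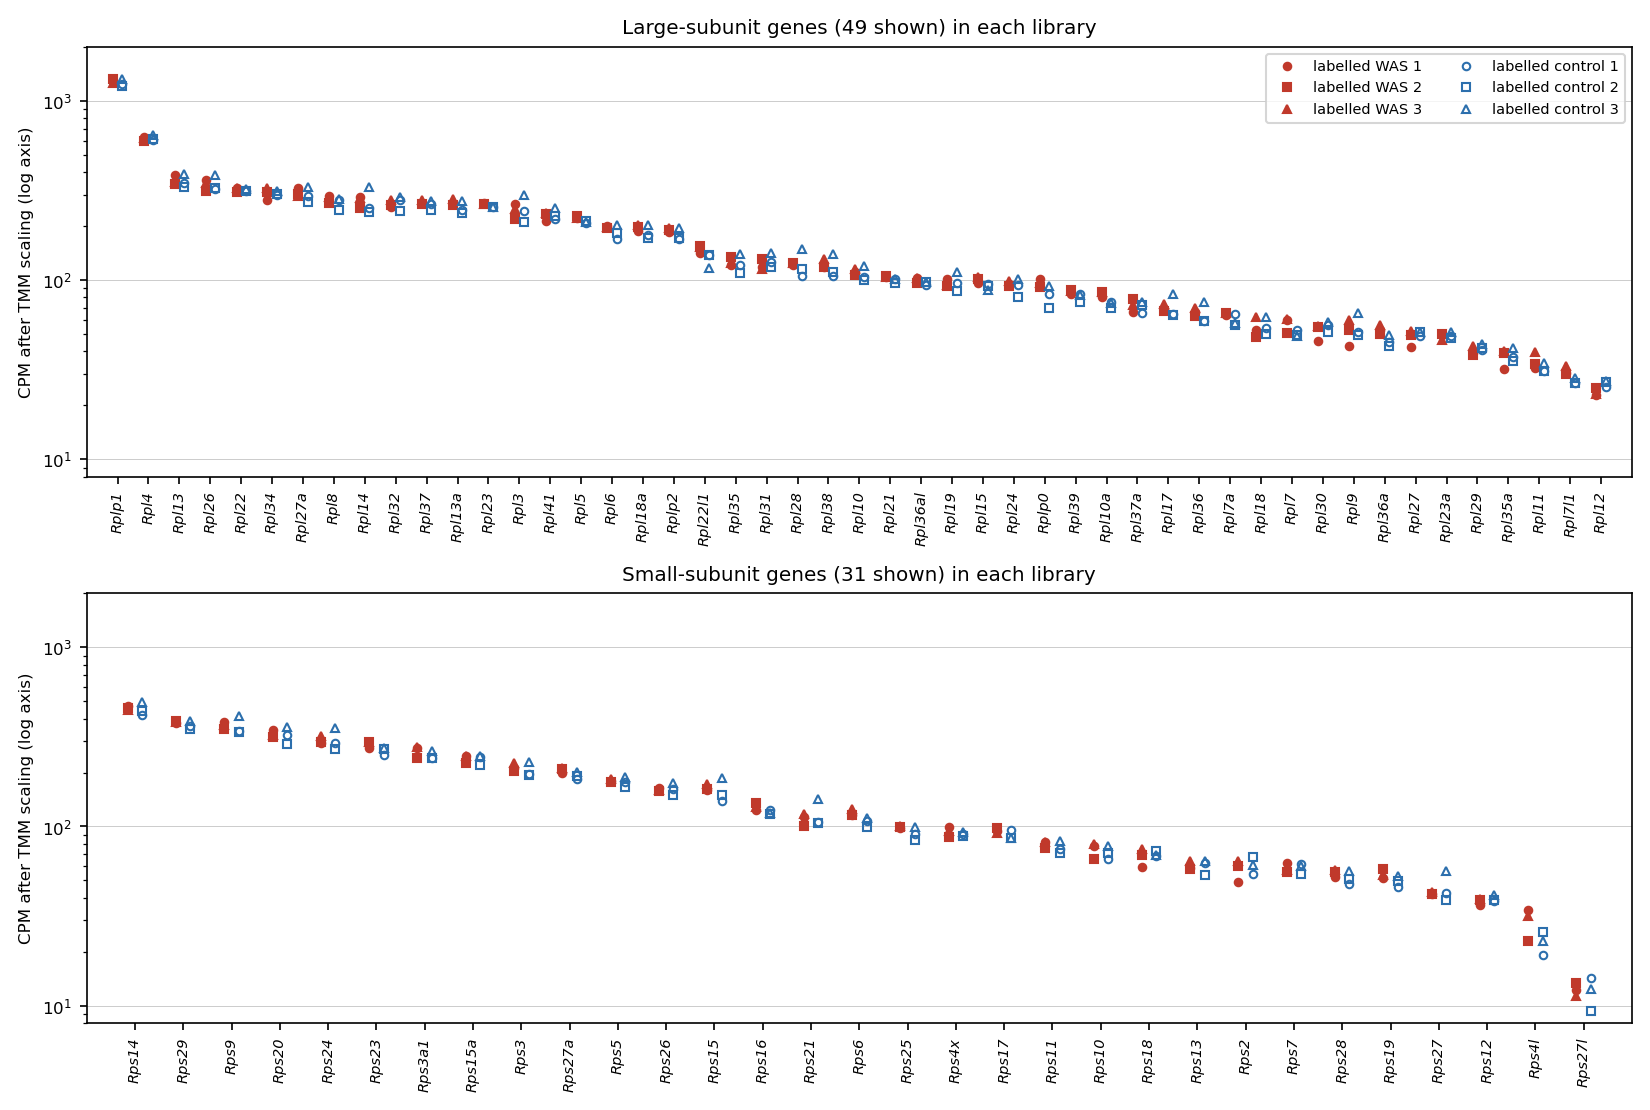
CPM after TMM scaling (log axis) of 80 of the 81 ribosomal protein genes in each of the 6 libraries, large subunit above and small subunit below, ordered by mean. Filled red symbols are libraries labelled WAS and open blue symbols those labelled control, and the 2 sets overlap for most genes from Rplp1 at 1272 CPM down to Rps27l at 12.1 CPM.

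The libraries labelled WAS and control hardly differed in these genes. The median log2 fold change of the 81 was 0.04, with 57 genes above 0 and 24 below, against a median of 0.00 with 50.2% above 0 for the 15239 genes tested. In the quasi-likelihood fit of edgeR, 2 of the 81 (2.47%) had an unadjusted p under 0.05, both higher in the libraries labelled WAS, against 7.24% of all genes tested, 3.85% higher and 3.40% lower. The count was 4 without WAS 2, against 13.7% of all genes tested, 1 without control 2, against 4.09%, and 0 without WAS 3 or control 1, against 4.27% and 4.92%. None met the study's criteria, which ask for a 1.5-fold change beside an unadjusted p under 0.05 and which 2.49% of all genes tested met. The study's own list came from quantile-normalized counts and was shorter, so this share is not its yield. None had an adjusted p under 0.05, and the smallest was 0.661, in edgeR with Benjamini-Hochberg adjustment. That threshold was passed by 0.00% of all genes tested in edgeR, where 1104 had an unadjusted p under 0.05. DESeq2 called 22 genes and limma 0 at that threshold, with 0 of the 81 among them in either. Without WAS 2, 484 genes passed it in edgeR, again with 0 of the 81 among them, and the smallest adjusted p of a named member was then 0.0643, for Rps4l.

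Within groups these genes varied little from library to library. Their spread was taken as the pooled coefficient of variation of CPM. Its median was 6.78% over the 81 genes and 9.70% over the other 8714 genes at levels within their range. Those genes were not matched to the members by level, and counting error grows as counts fall. Such error was 0.886% for Rplp1 and 9.07% for Rps27l. The part of level in this gap was not tested. The 95% interval of the fold change lay within 1.5-fold in either direction for 80 of the 81 genes, Rps4l being the exception. It did so for 55.4% of all genes tested, but these 2 shares do not compare genes of like level. Members needed at least 10 counts in every library, and all genes tested a log2 mean of 2. For those 80 genes the intervals leave out a difference of the size of the study's criterion between libraries so labelled, and smaller ones remain possible. Log2 fold changes ran from -0.16 for Rpl12 to 0.40 for Rps4l, as the plot of fold changes with intervals shows.

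**Figure D2:**
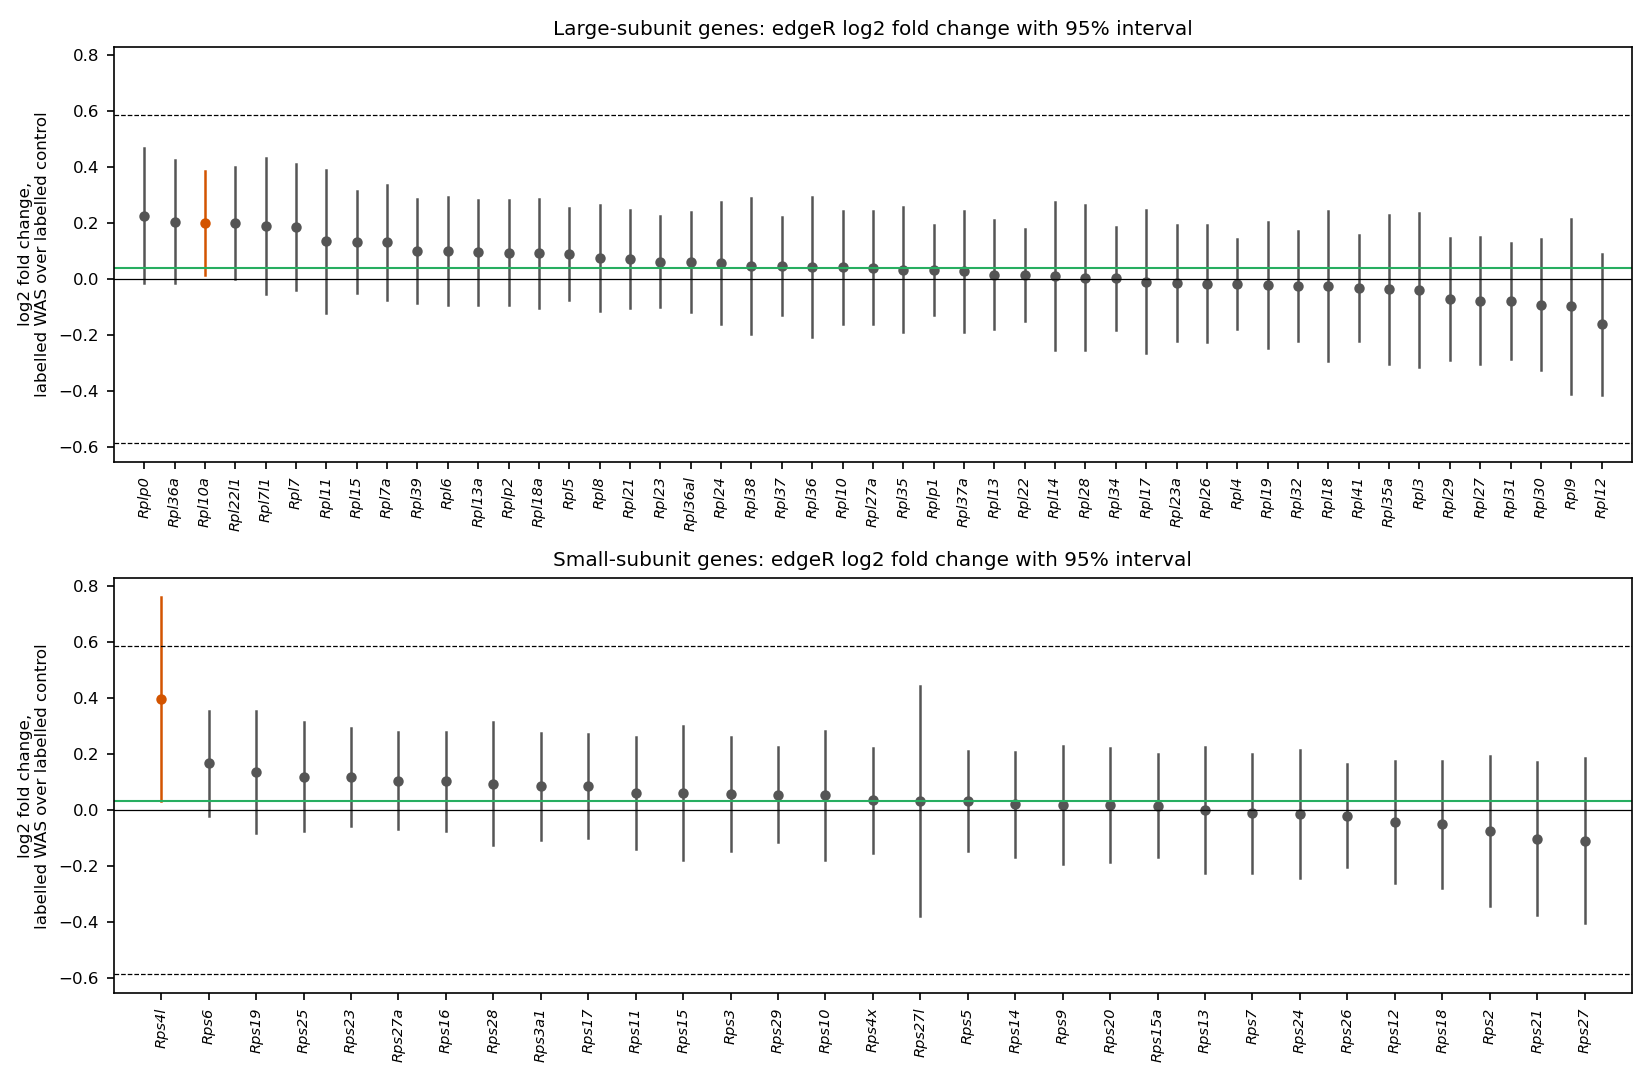
Log2 fold change of 80 of the 81 genes, libraries labelled WAS over those labelled control (vertical axis), with the 95% interval of the edgeR fit, for the large (above) and small subunit (below). Orange marks the 2 genes with an unadjusted p under 0.05, the green line is the median of the subunit (0.04 and 0.03), and dashed lines mark a 1.5-fold change, which the interval of Rps4l alone crosses.

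What differed more than the groups was the single library, as the plot of deviations by library shows. The summed level of the 81 genes was 13902, 13677 and 14126 CPM in the libraries labelled WAS and 13195, 12861 and 14599 CPM in those labelled control. The group means were 13901 ± 224 and 13551 ± 923 CPM (SD, n = 3 each), and the libraries labelled control held both the highest and the lowest sum. Library control 3 was the highest of the 6 for 42 of the 81 genes (51.9%), against 15.5% of all genes tested, and library control 2 was the lowest for 38 (46.9%), against 16.3%. The median deviation of the 81 genes from their own means was 0.07 on the log2 scale in control 3 and -0.10 in control 2, where the median over all genes tested stayed at 0.00 and 0.01. Markers of other cells also set control 2 apart. It had the highest neuronal sum of the 6 libraries (8524 CPM) and the highest cortical sum (7883 CPM). It had the lowest meningeal sum (104 CPM, against 152 to 223 CPM in the others, 10 markers). Its choroid plexus sum was also the lowest, at 314 CPM over 10 markers, close to the 319.6 CPM of WAS 1 and below the 1369 to 1807 CPM of the other 4 libraries. None of these markers was at 0 in all libraries. Control 3 had the highest share of 45S ribosomal RNA (7.32% of counts, against 5.21% in control 2). The part of these values in the pattern by library was not tested.

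**Figure D3:**
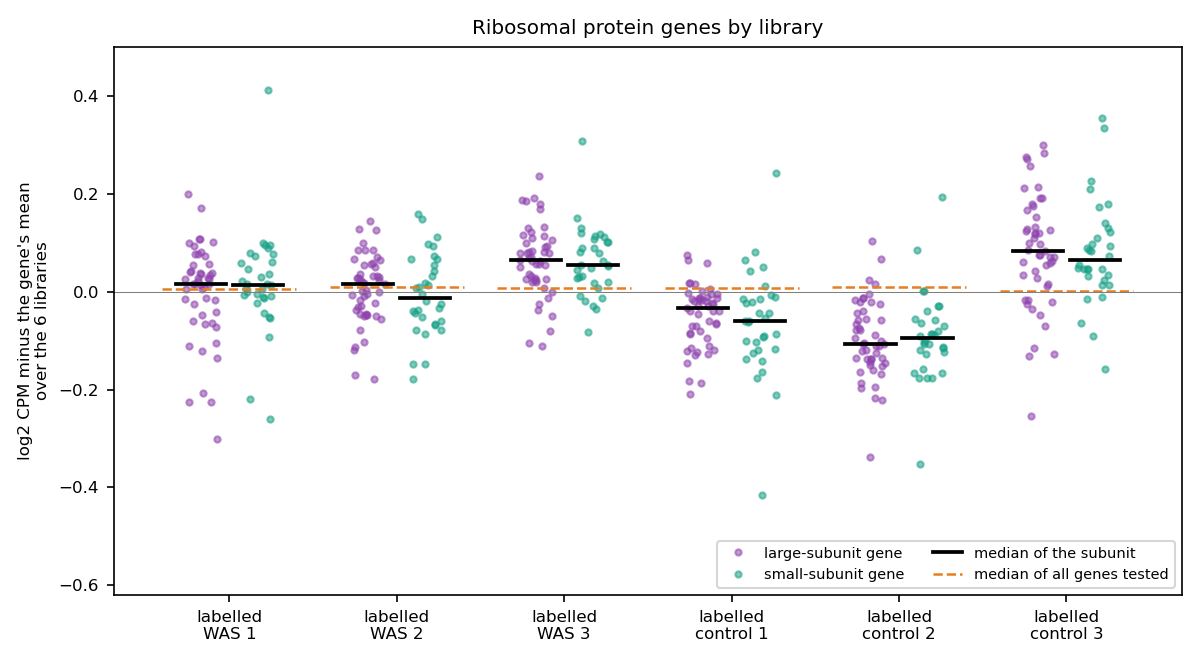
Log2 CPM of each ribosomal protein gene minus that gene's mean over the 6 libraries (vertical axis), by library (horizontal axis). Purple and green points are genes of the large and small subunit, black bars their medians, and the dashed line the median of all genes tested. The points lie lowest in control 2 and highest in control 3, with the libraries labelled WAS between them.

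The small difference between the groups varied with the library left out. Without control 3 the median log2 fold change rose to 0.10, with 73 of 81 genes above 0. Without control 2 it was 0.00, with 42 of 81 above 0, and without control 1 or WAS 3 it was 0.02. With all 6 libraries, the groups did not overlap for 13 of the 81 genes (16.05%), against 11.7% of all genes tested. Of these 12 were higher in the libraries labelled WAS, where 6.12% of all genes were, and 1 was lower, where 5.55% were. The 12 were Rpl5, Rpl7l1, Rpl10a, Rpl15, Rpl21, Rpl22l1, Rpl23, Rpl36a, Rpl39, Rps6, Rps16 and Rps23, named after their values were seen, with log2 fold changes between 0.06 and 0.20. Without control 3 the count was 41, against 23.4% of all genes tested, and without WAS 2 it was 22, against 29.4%. With total-count scaling it was 19, against 12.2%. With the 45S ribosomal RNA row left out it was 9, of which 8 were higher, against 11.8%, and the median log2 fold change was 0.03.

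Genes of the large and the small subunit had nearly the same fold changes. Their median log2 fold changes were 0.04 and 0.03, a difference of 0.01 that was -0.02 without control 1 or control 2. The large-subunit genes summed to 8780, 8670 and 8911 CPM in the libraries labelled WAS and to 8393, 8141 and 9206 CPM in those labelled control. The small-subunit genes summed to 5122, 5006 and 5215 CPM and to 4802, 4720 and 5393 CPM. The ratio of the large to the small sum hardly varied, at 1.71, 1.73 and 1.71 in the libraries labelled WAS and at 1.75, 1.72 and 1.71 in those labelled control. The difference between the group means, 1.72 and 1.73, was smaller than the SD of 0.02 among the libraries labelled control.

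By place in the ribosome, group medians of the log2 fold change lay between -0.01 and 0.11. The 8 proteins at the tunnel exit had a median log2 fold change of -0.01 with 3 above 0. Those at the mRNA entry (3) and exit (5) of the small subunit had medians of 0.02 and 0.03, and the 3 that contact transfer RNA one of 0.06. None of these 19 genes passed an unadjusted p of 0.05 in edgeR. Rps27a, made as a fusion with ubiquitin, had a log2 fold change of 0.11 ± 0.08. The 3 stalk genes had a median of 0.09, and the 2 genes Rpl5 and Rpl11 one of 0.11, with every one of them above 0.

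The stalk proteins recruit and activate the elongation factors, with Rplp0 as the base to which Rplp1 and Rplp2 bind. Rplp0 stood at 102, 91.0 and 96.0 CPM in the libraries labelled WAS and at 83.9, 70.1 and 93.2 CPM in those labelled control. The ranges overlapped by control 3, and the log2 fold change of 0.23 ± 0.11 (SE), the highest of the large subunit, did not pass (unadjusted p = 0.064, edgeR). With 1 library left out it ranged from 0.12 without control 2 (unadjusted p = 0.279, edgeR) to 0.32 without control 3 (0.0169). The unadjusted p was also under 0.05 without WAS 2 (0.0393), with total-count scaling (0.0342) and with a block for the replicate number (0.0294). It was 0.106 to 0.164 without WAS 1, WAS 3 or control 1, 0.0792 in DESeq2 and 0.12 in limma. Rplp2 stood at 185, 192 and 195 CPM against 169, 172 and 195 CPM. Its log2 fold change was 0.09 ± 0.09, and with 1 library left out it ranged from 0.05 without control 1 to 0.16 without control 3. That of Rplp1 was 0.03 ± 0.07, with a range from 0.00 without control 2 to 0.07 without control 3. The mean of Rplp1 was 1272 CPM, that of Rplp2 185 CPM and that of Rplp0 89.3 CPM. The level of Rplp2 is uncertain, since the row of its copy Rplp2-ps1 held 1.75 to 1.87 times as many counts.

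Rpl5 and Rpl11 carry the 5S ribosomal RNA into the large subunit and, when ribosome assembly fails, bind Mdm2. Rpl5 stood at 222, 227 and 222 CPM in the libraries labelled WAS and at 208, 214 and 209.9 CPM in those labelled control. The groups did not overlap, but the log2 fold change of 0.09 ± 0.07 was small (unadjusted p = 0.258, edgeR). Rpl11 stood at 32.2, 34.0 and 39.7 CPM against 31.0, 31.2 and 34.3 CPM, with overlap. Its log2 fold change was 0.13 ± 0.12, and it was 0.04 without WAS 3 and 0.19 without WAS 1.

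Rps6 is the small-subunit protein that the S6 kinases and the RSK kinases phosphorylate downstream of mTORC1 and ERK signalling, and its phosphorylated form is a common histological marker of neuronal activity. Its mRNA, whose start with a run of 10 pyrimidines is shown above, stood at 116, 117 and 125 CPM in the libraries labelled WAS and at 108, 99.3 and 111 CPM in those labelled control. All libraries labelled WAS lay above all those labelled control, and the log2 fold change was 0.17 ± 0.08 (unadjusted p = 0.0731, edgeR). The unadjusted p was 0.0342 with total-count scaling, 0.117 in DESeq2 and 0.109 in limma, and 0.0592 to 0.237 with 1 library left out. The annotation holds 13 genes that nearly match a stretch of the Rps6 transcript end, so its counts are uncertain. Phosphorylation is not seen in RNA counts.

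Rpl10a, a large-subunit protein widely tagged to purify translating ribosomes, was 1 of the 2 genes with an unadjusted p under 0.05. It stood at 81.0, 85.8 and 86.1 CPM in the libraries labelled WAS and at 75.03, 70.1 and 74.9 CPM in those labelled control. The groups did not overlap, and the log2 fold change was 0.20 ± 0.08 (unadjusted p = 0.0362, adjusted p = 0.664, edgeR with Benjamini-Hochberg adjustment). The unadjusted p was 0.0726 in DESeq2, 0.0546 in limma and 0.0512 without a filter on low counts, and it passed 0.05 in 1 of the 6 fits that left out a library, the one without WAS 1. Rpl12, which binds at the base of the stalk, had the lowest log2 fold change of the 81 and was the only gene whose libraries labelled WAS all lay below those labelled control. It stood at 22.7, 25.02 and 23.2 CPM against 25.3, 26.9 and 27.2 CPM, with a log2 fold change of -0.16 ± 0.12 (unadjusted p = 0.186, edgeR).

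Members that are paralogs of a core subunit gene were less abundant than their partner in 4 of 5 pairs. All 5 paralogs had a log2 fold change above 0 (median 0.19), against 50.2% of all genes tested. Rps4l stood at 34.1, 23.1 and 31.7 CPM in the libraries labelled WAS and at 19.1, 25.6 and 22.9 CPM in those labelled control. WAS 2 lay within the control range, and WAS 1 and WAS 3, the libraries with raised thalamic and midbrain markers, were the 2 highest. The log2 fold change was 0.40 ± 0.17 (unadjusted p = 0.0356, adjusted p = 0.661, edgeR with Benjamini-Hochberg adjustment). Over the fits that left out 1 library it ranged from 0.28 to 0.55. The unadjusted p stayed under 0.05 without WAS 2 or control 2 and not without WAS 1, WAS 3, control 1 or control 3, and it was 0.0984 in limma. GENCODE M21 lists Rps4l on chromosome 6 (148354656 to 148355598, GRCm38) as a transcribed processed pseudogene with a single exon. Rps4x, the X-linked gene of the same protein, had a mean of 92.3 CPM and a log2 fold change of 0.04 ± 0.09.

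Rpl22l1, whose product can replace that of Rpl22, stood at 143, 155 and 153 CPM in the libraries labelled WAS and at 137, 137 and 117 CPM in those labelled control. The groups did not overlap (log2 fold change 0.20 ± 0.09, unadjusted p = 0.0507, edgeR), and the lowest value was in control 3, the library where 42 members were highest. Its unadjusted p was 0.0361 without WAS 1, 0.0285 with total-count scaling and 0.0434 with upper-quartile scaling. With at least 10 counts required in every library it was 0.0456, and with a block for the replicate number 0.0440. It was 0.0655 in DESeq2, 0.0826 in limma, 0.0864 without WAS 2 and 0.115 without WAS 3. Without control 3 its log2 fold change was 0.13 with an unadjusted p of 0.191 (edgeR). Rpl22 itself stood at 309.8 to 329 CPM against 315 to 323 CPM, with a log2 fold change of 0.01 ± 0.08. Rpl7l1 stood at 30.3, 29.8 and 33.3 CPM against 26.8, 26.8 and 28.5 CPM, without overlap (log2 fold change 0.19 ± 0.11, unadjusted p = 0.115, edgeR). A stretch of the Rpl7l1 transcript end nearly matched 13 genes, of which 1 is a pseudogene, and the 10 with rows of their own, such as Cd9 and Tyk2, are not ribosomal protein genes. Rpl36al, an intronless gene, stood at 96.1 to 103 CPM against 94.3 to 97.4 CPM, above its partner Rpl36a with a mean of 49.5 CPM. Rpl36al is itself 1 of the 12 genes found to match a stretch of the end of Rpl36a, so these rows can share reads and their levels are uncertain. Rps27l, a gene that p53 induces in other settings, stood at 11.4 to 13.4 CPM against 9.39 to 14.3 CPM (log2 fold change 0.03 ± 0.19), and Rps27 at 41.8 to 43.2 CPM against 38.7 to 56.1 CPM (log2 fold change -0.11 ± 0.13), the lowest of the small subunit. The value of 56.1 CPM was that of control 3, and without it the log2 fold change of Rps27 was 0.06.

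The annotation gives these genes features that most genes lack. Their longest transcripts had a median of 937 bases and 5 exons, against 3205 bases and 9 exons for 13749 other protein-coding genes tested. Small nucleolar RNAs (snoRNAs), which guide the chemical modification of ribosomal RNA, lay in introns of 28 of the 81 genes (34.6%), against 1.36% of the other genes. Rpl4 held 5 and Rpl13a held 4. The 28 host genes had a median log2 fold change of 0.04 and the other 53 one of 0.03.

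Ribosomal protein genes have left many processed pseudogenes in the mouse genome, and the authors counted reads that align to several places. The last 200 bases of coding transcripts were therefore searched against all annotated transcripts for other genes with at least 75 bases at 95% identity, called copies here. Such a match need not cover the whole end, and the matched gene need not derive from the member. In that search no copy was found for 21 of the 81 genes, 41 had between 1 and 9 and 19 had 10 or more, with the most for Rpl21 (61), Rpl7a (52), Rps2 (41) and Rpl29 (40). The 21 are not free of copies, since they include Rpl37 and Rpl14, whose copies Rpl37rt and Rpl14-ps1 have rows in the counts. Median levels were 192 CPM for genes without a copy found, 123 CPM for those with 1 to 9 and 58.6 CPM for those with 10 or more. Across the 81 genes Spearman's rho between the number of copies and the level was -0.34 and Pearson's r on the log2 level -0.29, as the plot of level against copies shows. Genes are not independent replicates, and all share the same 6 libraries. Among the 21 genes without a copy found, 19 had a log2 fold change above 0 (median 0.06), and among the 19 with 10 or more, 10 did (median 0.01). None of the 21 had an unadjusted p under 0.05 in edgeR.

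**Figure D4:**
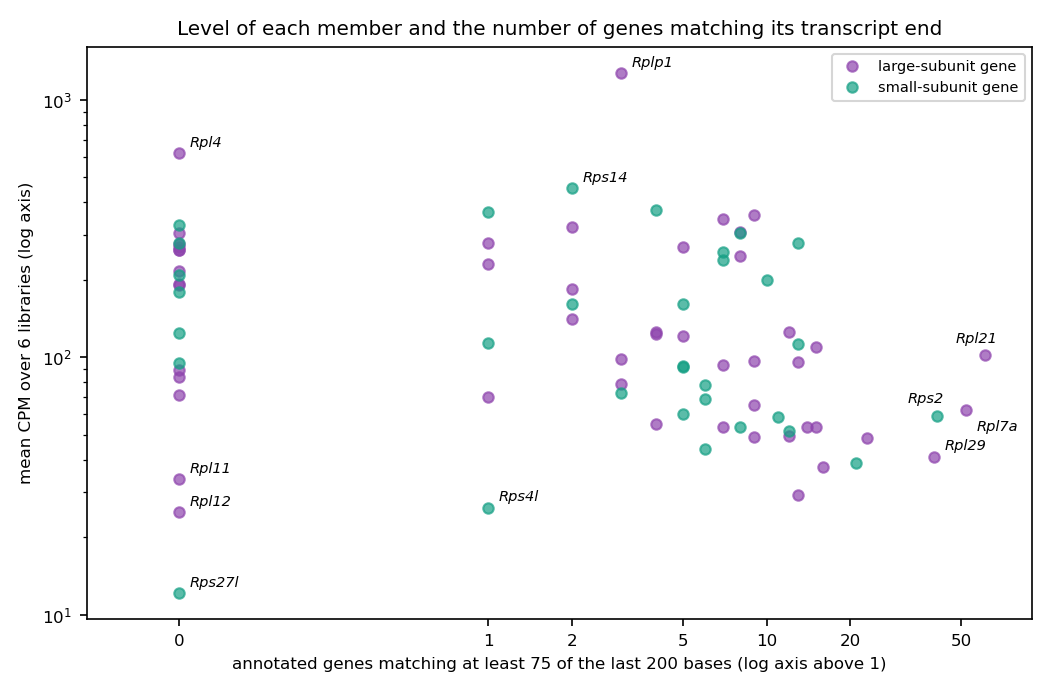
Mean CPM over the 6 libraries (log axis) of each ribosomal protein gene against the number of annotated genes that match at least 75 of the last 200 bases of its transcripts at 95% identity (log axis above 1), large subunit in purple and small subunit in green. Genes with 10 or more copies had a median of 58.6 CPM and those without a copy found one of 192 CPM, with wide overlap.

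The 9 rows of copies that the naming rule leaves out differed in how closely they ran with their gene. Rpl34 had 2864, 2911 and 3296 counts in libraries WAS 1 to 3 and 3143, 3095 and 3064 in control 1 to 3. Rpl34-ps1 had 2702, 2773 and 3126 counts in the former and 2993, 2944 and 2912 in the latter. The ratio of the copy to the gene lay between 0.943 and 0.953, a coefficient of variation of 0.361%, whereas independent counting error alone would give 2.59%. These 2 rows are therefore not independent counts. The ratio for Rplp2-ps1 lay between 1.75 and 1.87 and that for Rpl37rt between 2.29 and 2.42, so that these copies had more counts than the genes. Their coefficients of variation were 2.15% and 2.24%, against 2.90% and 2.31% from counting, and that of Rps27rt over Rps27 was 4.55% against 6.13%. Separately counted rows would vary about as much, so these ratios do not show whether reads were shared. Other copies varied beyond counting error. The ratio of Rpl14-ps1 to Rpl14 ran from 0.195 to 0.319, a coefficient of variation of 17.1% against 4.26% from counting. It was 17.3% against 8.36% for Rps19-ps3 and 11.9% against 6.12% for Rps15a-ps6. Rpl31-ps12 (7.22% against 6.15%) and Rps15a-ps4 (12.8% against 12.7%) lay near it.

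**Figure D5:**
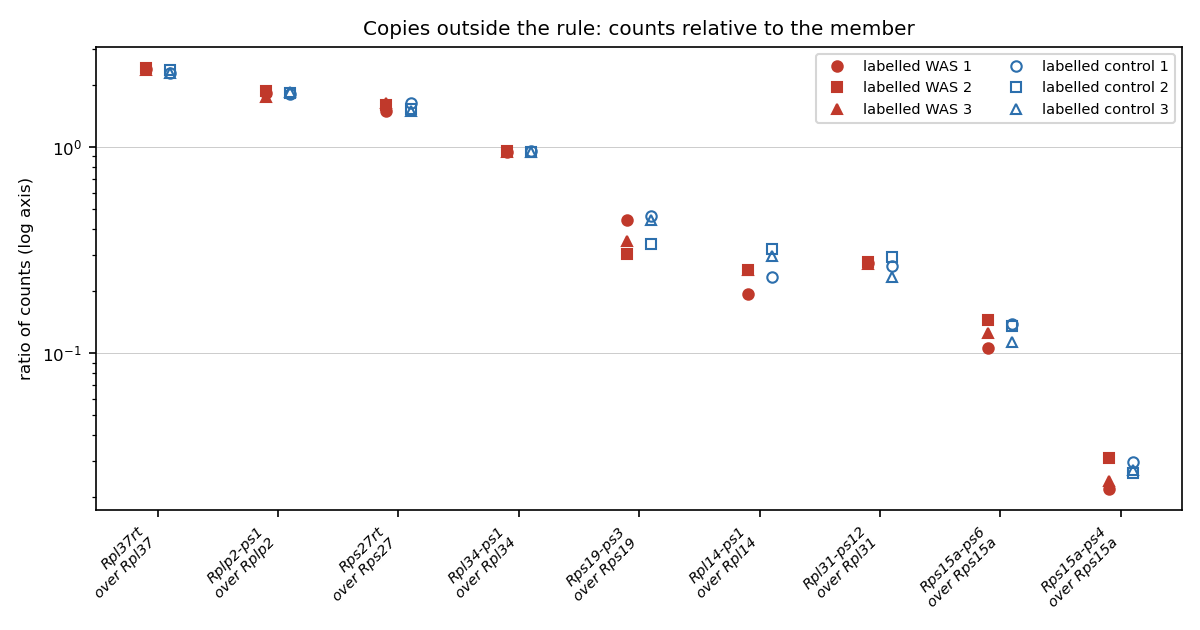
Counts of 9 copies outside the naming rule divided by the counts of the member they derive from (log axis), in each of the 6 libraries. The ratio of Rpl34-ps1 to Rpl34 lies between 0.943 and 0.953 in all of them, while that of Rpl14-ps1 to Rpl14 runs from 0.195 to 0.319.

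Other genes of the translation machinery, from lists chosen with earlier results of these data known, gave the same picture of few differences. Rpsa, Fau and Gnb2l1, the last the scaffold RACK1, are cytosolic ribosomal proteins whose symbols lie outside the rule. Their log2 fold changes were 0.11 ± 0.09, 0.07 ± 0.09 and 0.01 ± 0.09, and none had an unadjusted p under 0.05 in edgeR. Of 12 elongation and nascent chain factors, 0 were higher and 1 lower at an unadjusted p under 0.05 in edgeR, namely Eef1a2, the elongation factor form of mature neurons (log2 fold change -0.17 ± 0.07). The most abundant of them, Eef2 at 732 CPM, had a log2 fold change of 0.06 ± 0.08. None of 28 initiation factors tested passed, of which Eif4g3 was the most abundant at 634 CPM. Of 76 ribosome biogenesis genes, 2 were higher (Lsg1 and Aamp) and 2 lower (Dkc1 and Riok2), and the most abundant, Ncl, which encodes nucleolin, stood at 475 CPM with a log2 fold change of 0.02 ± 0.07.

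Of 27 genes of mTORC1 and of TOP mRNA control, Mlst8, a subunit of both mTOR complexes, was higher (log2 fold change 0.35 ± 0.12, unadjusted p = 0.0128, edgeR). Deptor, an inhibitor of mTOR, was lower (log2 fold change -0.30 ± 0.11, unadjusted p = 0.0199, edgeR). Their adjusted p-values in edgeR were 0.585 and 0.62, so neither held over all genes. The most abundant was Rraga at 260.5 CPM. The RSK kinase genes gave 0 of 6, with Rps6ka2 the most abundant at 35.3 CPM. The noncoding snoRNA hosts gave 0 of 11, with Snhg11 at 2824 CPM. The 77 mitochondrial ribosomal protein genes, which belong to a separate ribosome, had a median log2 fold change of 0.01 with 2 higher (Mrpl39 and Mrpl51) and 0 lower, and Mrps25 was the most abundant at 188 CPM. Genes named here for their p were chosen after their values were seen, and each of these shares lies at or under the 7.24% of all genes tested, apart from 8.33% for the 1 of 12 elongation factors and 7.41% for the 2 of 27 mTORC1 genes.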

How the data were processed

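Forebrain RNA of 6 mice, 3 labelled WAS and 3 labelled control, was sequenced as 1 QuantSeq 3′ library per mouse, and groups were taken from the sample labels. The deposited values are read counts per gene symbol. The authors mapped the reads with Bowtie2, and their counting with Bedtools kept reads that align more than once, which can share reads between near-identical genes. The submitters' processing notes name mm10, and the annotation and the strand setting are not given in the sources used here. The quantile normalization of the study is not in the counts. All 23282 entries were read, of which 44 repeat a symbol.

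After TMM scaling, all 6 libraries entered one quasi-likelihood fit in edgeR 4.0.16 (R 4.3.3), without a replicate term. It covered 15239 genes, whose quantile-normalized counts plus 1 had a log2 mean of 2 or more. All 81 members passed that filter. Adjusted p-values are by Benjamini-Hochberg over all genes tested. Standard errors were obtained from the log2 fold change and its F value (ratio to the root of F), and intervals are at 95%. With 3 mice against 3, an exact permutation test could not go below 0.1, and none is given for single genes. DESeq2 1.42.0 and limma 3.58.1 were alternatives, beside other scalings, filters, a replicate block, libraries left out and smaller sets of members. The script was tested on simulated data. Counts carry no molecular identifiers, so counting error understates technical error.

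Gene positions and transcript ends came from GENCODE M21 (GRCm38), matched by symbol for 81 of 81 members and searched with blastn 2.17.0, and start windows from RefSeq (GRCm38.p6). Named members were the 5 highest and 3 lowest in level per subunit, those with an unadjusted p under 0.05, the highest and lowest log2 fold change per subunit, and the stalk, 5S, paralog and Rps6 genes. From other lists the most abundant gene was named, with Rpsa, Fau and Gnb2l1, which lie outside the naming rule. Single values of 1 member, and of 1 gene outside the rule, are not reported here, and sums and counts over the 81 members include every member. The members and lists were chosen with earlier results of these data known.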

Additional observations from a re-analysis of the deposited data

How the results depend on the processing

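The count of 2 genes with an unadjusted p under 0.05 was 6 with total-count scaling (7.66% of all genes tested), which moved the median of all genes by 0.04 and put 69 of 81 genes above 0. It was 3 with upper-quartile scaling (7.28% of all genes), 1 with DESeq2 (5.82%), 0 with limma (5.7%), 1 without a filter on low counts (6.9%), 1 without the paralogs, 0 among the 21 genes without a copy found (7.24% for both) and 0 to 4 with 1 library left out (4.09% to 13.7%). Groups did not overlap for 6 of those 21 genes, against 11.7% of all genes, and for 15 to 41 of the 81 with 1 library left out, against 18.9% to 29.4%, fewer libraries making such gaps easier. The median log2 fold change stayed above 0, from 0.003 without control 2 to 0.10 without control 3, but relative to all genes it was -0.0011 without control 2. The count of genes whose groups do not overlap was 9 without the 45S row, and the difference between subunits ran from -0.015 to 0.0070 with 1 library left out. Relative to all genes, the median of the 81 was 0.03 with TMM, 0.09 without control 3 and 0.07 with limma, the cause of which was not tested.

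Same-numbered libraries of the 2 groups were not treated as pairs, since the labels name nothing that they share and their deviations correlated at 0.07, 0.08 and 0.09. Each was the best match of its library, a hint from the data and not from the design. With the replicate block, 4 genes had an unadjusted p under 0.05, against 9.37% of all genes tested. Rplp0 (0.0294) and Rpl22l1 (0.0440) were among them, and 49 genes, none of the 81, had an adjusted p under 0.05 in edgeR. At an unadjusted p under 0.05 the count over all genes was 1428, against 1104 without the block.

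Of 336 values for the 24 named members under alternatives, 26 changed sign, all with an unadjusted p above 0.05. With total-count scaling Rpl26 stood at 0.021, Rpl4 at 0.020 and Rps24 at 0.024, and with limma at 0.037, 0.024 and 0.023. With 1 library left out, log2 fold changes ran from -0.035 to 0.082 for Rpl13, from -0.0050 to 0.041 for Rpl22, from -0.064 to 0.071 for Rpl26, from -0.035 to 0.0076 for Rpl4, from -0.030 to 0.093 for Rps14, from -0.056 to 0.096 for Rps20, from -0.093 to 0.106 for Rps24, from -0.215 to 0.063 for Rps27, from -0.115 to 0.180 for Rps27l, from -0.038 to 0.120 for Rps9. Counting error was below the spread between libraries for 73 of 81 members, and 3 mice per group limit what could be detected.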
